A study of Solanum lycopersicum with 12 samples.

Results

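Leaves of heated tomato plants with and without added salinity were compared by RNA sequencing. The 6 libraries of this comparison were chosen by their treatment label from the 12 libraries of the study. They are 3 from plants under salinity and heat applied together, called the combination here, and 3 from plants under heat alone. The other 6 libraries are 3 from untreated control plants and 3 from plants under salinity alone. They give the change that salinity brought without heat. All libraries came from leaf tissue of Solanum lycopersicum. The labels used here name no salt dose, temperature, duration, cultivar or plant age, and do not say how many plants were pooled in a library. Nor do they say whether libraries of a group came from separate plants, so p-values measure the spread between these libraries, which may be partly technical.

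Salinity limits the water that roots can take up and brings sodium and chloride into the leaf, and plants answer it with osmolytes such as proline, with abscisic acid signalling and with ion transport. Heat unfolds proteins and loosens membranes, and its best known answer is the induction of heat shock proteins by heat shock factors. Both stresses raise reactive oxygen species, which ascorbate and the enzymes around it remove, and proline, ascorbate and oxidative stress are the pathways that the study's title names. The question of this comparison is how leaves under salinity and heat together differed from leaves under heat alone.

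The gene models carry Solyc identifiers, in which the digits before the g are the chromosome, the digits after it are a number along the chromosome, and the first digit after the point is the version of the model. Of the 34075 identifiers, 0 were found in the RefSeq table used here (assembly SLM_r2.1), and the count table gives no names. Gene functions, the pathways of the title and markers of leaf cells or of other tissues were therefore not analysed here, and the label of leaf tissue was not checked against marker genes. In bulk leaf samples, fewer cells of a type and less RNA per cell cannot be told apart.

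The total count was 72372874 ± 7084638 per library in the combination and 74797442 ± 3177071 in heat (mean ± SD, n = 3 each), with a range over the 6 libraries from 64418783 to 78370751. The Pearson correlation of log2 CPM, which are counts scaled per 1000000 of library size, across gene models was 0.976 to 0.984 for pairs of heat libraries, 0.967 to 0.984 for pairs of combination libraries and 0.89 to 0.962 across the groups. Replicate 2 stood farthest from the other group in both conditions. In a principal component analysis of the 6 libraries the first component held 66.1% of the variance. The combination libraries lay on it at -42.7, -96.5 and -51.7 for replicates 1, 2 and 3, and the heat libraries at 56.2, 95.0 and 39.7. The groups were separate on this axis, and replicate 2 of each group was its outermost library. Results are therefore also given without these libraries.

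Salinity changed a large part of the leaf transcriptome of heated plants. Of 20717 gene models tested, 8355 (40.3%) were called, which means an adjusted p under 0.05 in the quasi-likelihood test of edgeR, adjusted by Benjamini and Hochberg's method. Higher levels in the combination were called for 3514 gene models (17.0%) and lower levels for 4841 (23.4%). The split was nearer to balance with DESeq2 size factors, at 4098 higher and 4453 lower, and in the DESeq2 Wald test, at 4673 and 4916. An unadjusted p under 0.05 was found for 10374. In 3426 of the higher calls and 4667 of the lower calls, all 3 libraries of one group lay above all 3 of the other. Over all gene models tested, libraries of the groups did not overlap in 26.4% toward higher and 29.8% toward lower levels.

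The decreases were larger than the increases. The median log2 fold change was 0.77 among gene models called higher and -1.14 among those called lower, while the median of all gene models tested was -0.0019. Among calls under a log2 value of 1, 2430 were higher and 1906 lower. From 1 to 2 the order turned, with 860 higher and 2417 lower. A change of 2 to 3 was found for 152 higher and 411 lower gene models, a change of 3 to 4 for 47 and 73, and a change of 4 or more, which is at least 16-fold, for 25 and 34. The log2 fold changes of all calls ranged from -6.85 to 8.37. At a log2 change of 1 or more, 5.23% of the gene models tested were higher and 14.2% lower. Scaling with DESeq2 size factors gave 1272 higher and 2648 lower at this size, and total counts without scaling factors gave 922 and 2720, so the decreases outnumbered the increases under each scaling tried.

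**Figure D1:**
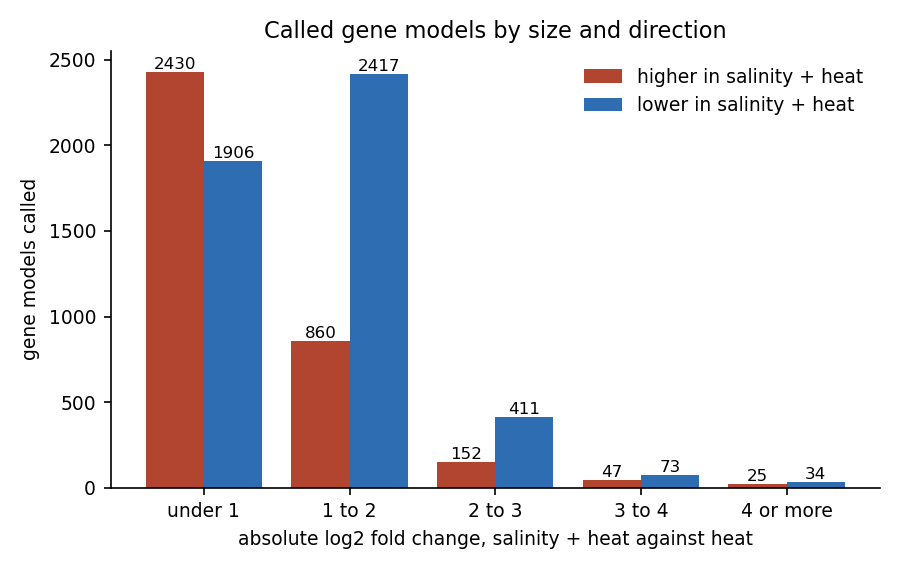
Number of gene models called in the combination (salinity + heat) against heat, by the absolute log2 fold change (horizontal axis, in classes) and by direction (red, higher in the combination; blue, lower). Increases outnumber decreases under a log2 value of 1, with 2430 to 1906, and decreases outnumber increases in each larger class.

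The number of calls rested in part on replicate 2. Without combination replicate 2, 5570 gene models were called, and without heat replicate 2, 4900. Without both libraries 2625 were called, 912 higher and 1713 lower, and at a log2 change of 1 or more 483 were higher and 1189 lower. The excess of decreases was thus present without these libraries, at a smaller number of calls. Among the called gene models, combination replicate 2 was the library farthest from heat in 69.8% of the increases and 72.1% of the decreases. Heat replicate 2 was the one farthest from the combination in 60.9% and 78.6%.

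The direction of nearly all calls was the same in a library that had been left out of the fit that made them. Each of the 6 libraries was left out in turn, the model was refitted, and the level in the left-out library was set against the mean of the other group, on the log2(CPM + 0.1) scale. That mean had entered the calls, and the left-out library had entered the filter and the CPM scaling, so it was new to the fit only. Between 98.7% and 99.5% of the calls had the same direction in the left-out library. The share over all gene models tested is not given here. The median difference of gene models called higher was 0.56 in combination replicate 1, 0.96 in combination replicate 2 and 0.71 in combination replicate 3. For those called lower it was -0.91, -1.51 and -1.02. The difference was thus largest in replicate 2, for sets of calls that are not the same in the 3 refits.

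The gene models that changed took a different share of the library in each group. The 3514 called higher held 11.4%, 10.1% and 11.8% of the counts in heat replicates 1 to 3, and 18.8%, 19.2% and 19.0% in the combination. The 4841 called lower held 24.6%, 28.7% and 21.6% in heat and 14.5%, 10.1% and 12.3% in the combination. These 6 libraries chose the sets, so their separation is a description. The control and salinity libraries are not in the contrast, but they were part of the model and so of the filter, the scaling and the shared spread behind the calls. There the first set held 10.5%, 11.1% and 11.8% of the counts in control and 19.997%, 15.7% and 16.3% in salinity. The second held 19.0%, 16.3% and 13.3% in control and 7.95%, 5.84% and 7.69% in salinity. In unheated plants, too, each salinity library lay above each control library for the first set and below each for the second. Sets called from the heat and combination libraries alone, where no control or salinity library entered the choice, gave the same order. The 3766 gene models then called higher held 15.1% to 17.3% of the counts in control and 23.2% to 27.8% in salinity, and the 4345 called lower held 13.7% to 19.4% and 6.02% to 7.79%.

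**Figure D2:**
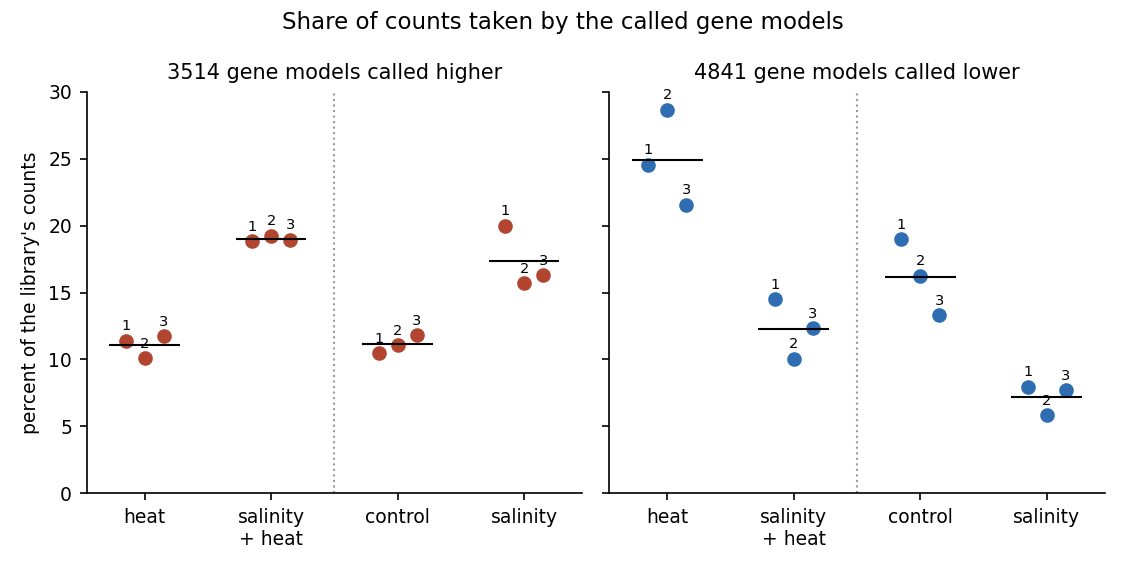
Share of each library's counts (vertical axis, percent) taken by the gene models called higher (left) and lower (right) in the combination against heat, in all 4 groups. Points are libraries with their replicate number and lines are group means. Control and salinity, to the right of the dotted line, are not in the contrast that chose the sets, and they separate in the same direction, with 10.5% to 11.8% against 15.7% to 19.997% on the left and 13.3% to 19.0% against 5.84% to 7.95% on the right.

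Solyc02g071220.3.1 on chromosome 2 had the largest increase, by the rule that a gene model be called, reach a mean of 5 CPM in the higher group and have groups that do not overlap. In heat replicates 1 to 3 it stood at 2.06, 1.26 and 3.19 CPM, and in those of the combination at 53.0, 111 and 125 CPM. All heat libraries were thus low and all combination libraries high, with means of 2.17 ± 0.973 and 96.2 ± 38.0 CPM (SD, n = 3 each), a 44.3-fold difference. This is a log2 fold change of 5.47 (SE 0.64; edgeR adjusted p 0.000262). Without heat the gene model stood at 70.5, 26.2 and 32.4 CPM in control and 24.8, 75.0 and 111 CPM in salinity. These groups overlapped, and their log2 difference was 0.71 (SE 0.52; edgeR adjusted p 0.284). The difference between the salinity changes with and without heat, the interaction, was 4.76 on the log2 scale (SE 0.78; edgeR adjusted p 0.00649).

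The next largest increase by this rule was that of Solyc02g090990.1.1 on the same chromosome. It was nearly silent in heat, at 0.524, 0.222 and 0.281 CPM, which correspond to 45, 18 and 25 counts. In the combination it reached 6.72, 9.12 and 10.9 CPM, so that the means of 0.342 ± 0.16 and 8.92 ± 2.11 CPM (SD, n = 3 each) differed 26.1-fold. Its log2 fold change was 4.69 (SE 0.57; edgeR adjusted p 0.000317). Control libraries lay at 3.01, 2.76 and 4.24 CPM and salinity libraries at 8.8, 2.23 and 2.22 CPM, where 1 salinity library was high and the other two lay below every control library. The interaction was 4.29 (SE 0.72; edgeR adjusted p 0.00711). The gene model numbered directly before it among those tested had the third largest increase, at a log2 value of 4.29 (edgeR adjusted p 8.31e-05), and its interaction was 3.78. That neighbour had mean levels of 0.364 CPM under heat and 7.19 CPM in the combination. How the authors counted reads shared by similar neighbours is not given in the sources used here, so these values may be partly from shared reads, which was not tested.

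The largest decrease by the same rule was that of Solyc01g099990.3.1 on chromosome 1. The heat libraries held it at 3.75, 4.45 and 10.7 CPM and the combination libraries at 0.0217, 0.227 and 0.0538 CPM, which are 2, 18 and 4 counts. Every combination library was thus below every heat library, and replicates 1 and 3 were close to the limit of counting, which at 3 counts is 0.0326 to 0.0404 CPM in these 6 libraries. The means were 6.3 ± 3.82 and 0.101 ± 0.11 CPM (SD, n = 3 each), a 62.5-fold difference. The fitted log2 fold change was -5.96 (SE 0.71; edgeR adjusted p 0.000286). In unheated plants it stood at 1.2, 1.78 and 1.04 CPM in control and 0.713, 0.379 and 0.266 CPM in salinity. Every salinity library was below every control library, at a log2 difference of -1.56 (SE 0.60; edgeR adjusted p 0.0462). The decrease was larger under heat, with an interaction of -4.40 (SE 0.90; edgeR adjusted p 0.014).

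The second largest decrease by this rule was that of Solyc12g008600.2.1 on chromosome 12. It was abundant in heat, at 64.8, 72.3 and 21.8 CPM, and low in the combination, at 0.782, 1.61 and 0.632 CPM. The means of 53.0 ± 27.3 and 1.01 ± 0.528 CPM (SD, n = 3 each) differed 52.5-fold, at a fitted log2 value of -5.71 (SE 0.50; edgeR adjusted p 7.27e-05). Control libraries lay at 4.79, 4.84 and 7.96 CPM and salinity libraries at 5.61, 7.1 and 5.1 CPM. These groups overlapped and their log2 difference was 0.02 (SE 0.41; edgeR adjusted p 0.977). The interaction was -5.73 (SE 0.63; edgeR adjusted p 0.00139).

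**Figure D3:**
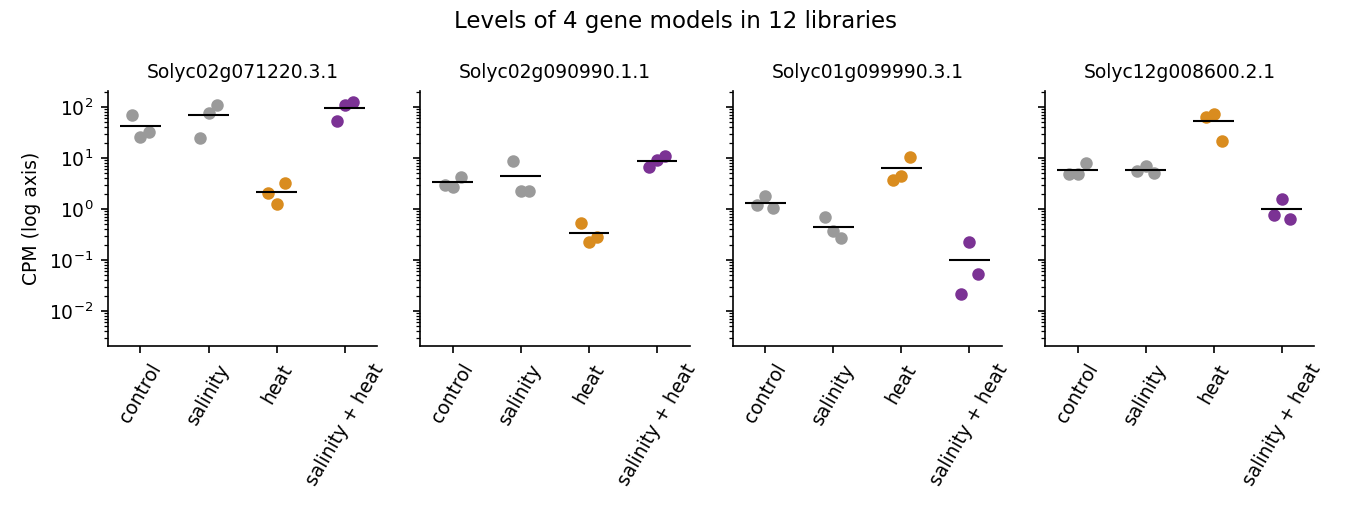
Level in CPM (vertical axis, logarithmic) of the named gene models in all 12 libraries. They had the 2 largest increases (left pair) and the 2 largest decreases (right pair) in the combination against heat. This holds among called gene models with at least 5 CPM in the higher group and no overlap of the groups. Points are libraries and lines are group means. The left pair lies at 0.222 to 3.19 CPM in heat and at 6.72 to 125 CPM in the combination, and the right pair at 3.75 to 72.3 CPM in heat and at 0.0217 to 1.61 CPM in the combination.

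In both gene models that rose, the heat libraries were the lowest of the 4 groups, and in both that fell they were the highest. Heat against control, which shares the heat libraries with the comparison above, had log2 fold changes of -4.30, -3.27, 2.23 and 3.18 for the 4 gene models in the order given. The combination against control, which shares the combination libraries, had 1.16, 1.42, -3.74 and -2.54, with edgeR adjusted p of 0.11, 0.0398, 0.00144 and 0.00124. The second gene model was thus called higher in the combination than in control, and both that fell were called lower. Among the 10 largest increases under the same rule, with log2 fold changes of 3.36 to 5.47, 5 had an interaction call and 4 were also called higher in salinity against control. Among the 10 largest decreases, from -3.91 to -5.96, 5 had an interaction call and 6 were also called lower in salinity against control. None of these 20 was called in the opposite direction there. These 20, with the 4 named gene models among them, were chosen by their change with heat. That change is part of the interaction, so the choice favours interaction calls, which are given as a description.

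The change that salinity brought in unheated plants, from libraries that share nothing with the 6 above, was set beside each direction. It was called for 9817 gene models (47.4%), 23.6% higher and 23.8% lower. Of the 3514 gene models that rose in the combination against heat, 2436 (69.3%) also rose in salinity against control, 48 fell and 1030 (29.3%) were not called. Of the 4841 that fell, 2703 (55.8%) also fell in salinity against control, 120 rose and 2018 (41.7%) were not called. A missing call does not by itself show that the salinity changes with and without heat differ. The interaction is the test of that difference.

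**Figure D4:**
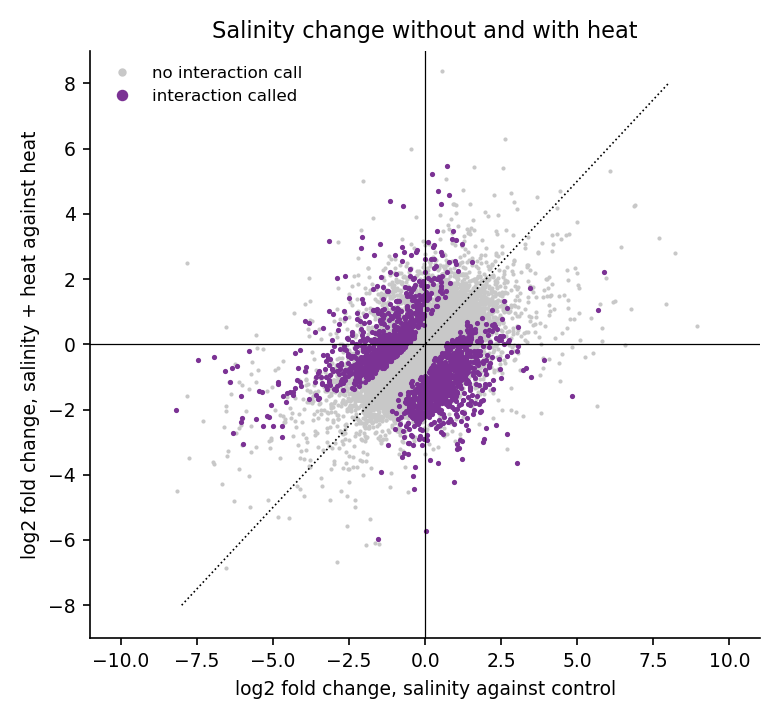
Log2 fold change of salinity without heat (horizontal axis, salinity against control) and with heat (vertical axis, combination against heat) for 20717 gene models. Each point is a gene model, purple where the interaction was called (1852) and grey where it was not, and the dotted line marks equal change. The purple points lie on both sides of the line and away from it.

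An interaction was called for 1852 of the gene models tested (8.94%), with a positive sign for 4.73% and a negative sign for 4.21%. The share was 6.40% (225) among gene models that rose in the combination against heat and 17.9% (868) among those that fell. For the increases, 209 of the 225 interactions had a positive sign, a larger increase with heat than without. For the decreases, 603 of the 868 had a negative sign, a larger decrease with heat, and 265 a positive one. Of these 265, all were gene models that had also fallen in salinity against control. A decrease with heat and a positive interaction together nearly fix this in advance. The calls in the combination against heat share its libraries with the interaction. The larger share among decreases, which were also the larger changes, is therefore given as a description.

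The choice of gene models called in both salinity comparisons in the same direction itself favours similar sizes, so their medians are a description. The median log2 fold change of the 2436 that rose in both was 0.73 with heat and 0.94 without. Of them, 33 (1.35%) had an interaction call, compared with 8.94% of all gene models tested. For the 2703 that fell in both the median was -1.02 with heat and -1.22 without, with 292 interaction calls (10.8%). Of these calls, 265 marked a smaller decrease with heat and 27 a larger one. Among the 1030 that rose only by the call with heat, the median was 0.97 with heat and 0.29 without, and 144 had an interaction call. Among the 2018 that fell only by the call with heat, the median was -1.27 with heat and -0.21 without, and 456 (22.6%) had one. All these interactions had the sign of the change with heat. The choice of a call with heat and none without favours that sign and a larger median with heat. These values are therefore a description too.

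Some changes went in opposite directions. The 48 gene models that rose with heat and fell without it had median log2 fold changes of 0.91 and -0.94. The 120 that fell with heat and rose without it had medians of -1.21 and 1.01. All 168 had an interaction call, which the choice of opposite calls nearly fixes in advance. Conversely, 2334 gene models that rose in salinity against control (47.7%) and 2176 that fell there (44.2%) were not called in the combination against heat. Their medians with heat were 0.33 and -0.24. An interaction was called for 247 (10.6%) and 504 (23.2%) of them, compared with 8.94% of all gene models tested. Each had the sign opposite to the salinity change without heat. That sign is favoured by the choice of gene models called without heat and not called with it. The numbers of interactions depended on the control libraries too. Leaving out control replicate 2 gave 806 and leaving out combination replicate 1 gave 826.

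The direction of change differed with the abundance of the gene model, taken as its mean CPM over all 12 libraries. Below 1 CPM, 7.55% of 4307 gene models rose and 9.52% fell. From 1 to 5 CPM, 13.4% of 4822 rose and 27.4% fell, and from 5 to 20 CPM 19.2% of 6116 rose and 32.0% fell. From 20 to 100 CPM 25.7% of 4165 rose and 23.2% fell, and at 100 CPM or more 22.4% of 1307 rose and 14.2% fell. The median log2 fold change in these 5 bands was 0.05, -0.20, -0.10, 0.14 and 0.24. Its sign in each band was kept with DESeq2 size factors, with total counts and without both libraries of replicate 2. The balance of calls in the 2 upper bands rested on replicate 2. Without heat replicate 2, 12.1% rose and 16.9% fell from 20 to 100 CPM, and 8.95% rose and 10.02% fell at 100 CPM or more. Without combination replicate 2 the shares were 16.7% and 16.7%, and 12.4% and 10.9%. Without both they were 6.03% and 10.4%, and 3.52% and 7.12%. Among the 100 most abundant gene models 6 rose and 13 fell, compared with 17.0% and 23.4% of all gene models tested. Their median log2 fold change was 0.15.

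Direction also followed the version number in the identifier, which by the naming convention of the annotation rises when a gene model is revised. Among 3223 gene models of version 1, 21.3% rose and 10.5% fell. For version 2 the shares were 18.7% and 20.4% of 3125, for version 3 they were 16.8% and 25.8% of 9279, and for version 4 they were 13.4% and 28.9% of 5071. The median log2 fold change went from 0.27 in version 1 over 0.10 and -0.06 to -0.16 in version 4. Version 1 models were less abundant, with a median of 1.71 CPM, compared with 7.52 CPM in version 4. Without heat replicate 2, 10.8% of version 1 rose and 6.61% fell, and 6.72% of version 4 rose and 18.9% fell. Without combination replicate 2 the shares were 13.5% and 7.91% in version 1 and 9.21% and 19.1% in version 4. Without both, increases and decreases of version 1 were close, at 5.43% and 4.96%, while in version 4 they were 3.69% and 9.54%.

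The pattern was also seen at matched abundance. Among gene models of 5 to 20 CPM, 31.7% of version 1 rose and 13.8% fell, whereas in version 4 14.9% rose and 37.8% fell. Among those of 20 to 100 CPM the shares were 35.0% and 12.1% in version 1 and 19.96% and 26.9% in version 4. Salinity against control, with no library in common, had 27.0% rising and 14.3% falling in version 1 and 20.1% rising and 27.7% falling in version 4. Relative to the median of all gene models tested, version 1 stood 0.27 higher and version 4 0.16 lower on the log2 scale with TMM factors, 0.27 and 0.16 with DESeq2 size factors and 0.18 and 0.09 without both libraries of replicate 2. Over all abundances, the interaction share was 8.97% in version 1 and 9.60% in version 4, near the 8.94% of all gene models. At matched abundance it was higher in version 1. Among gene models of 5 to 20 CPM it was 14.6% in version 1 and 10.5% to 12.3% in versions 2 to 4. Among those of 20 to 100 CPM it was 15.9% in version 1 and lower in each of versions 2 to 4. This difference in interaction share was not tested. Length and exon number of the models were not analysed here, and their part in these patterns by version was not tested.

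**Figure D5:**
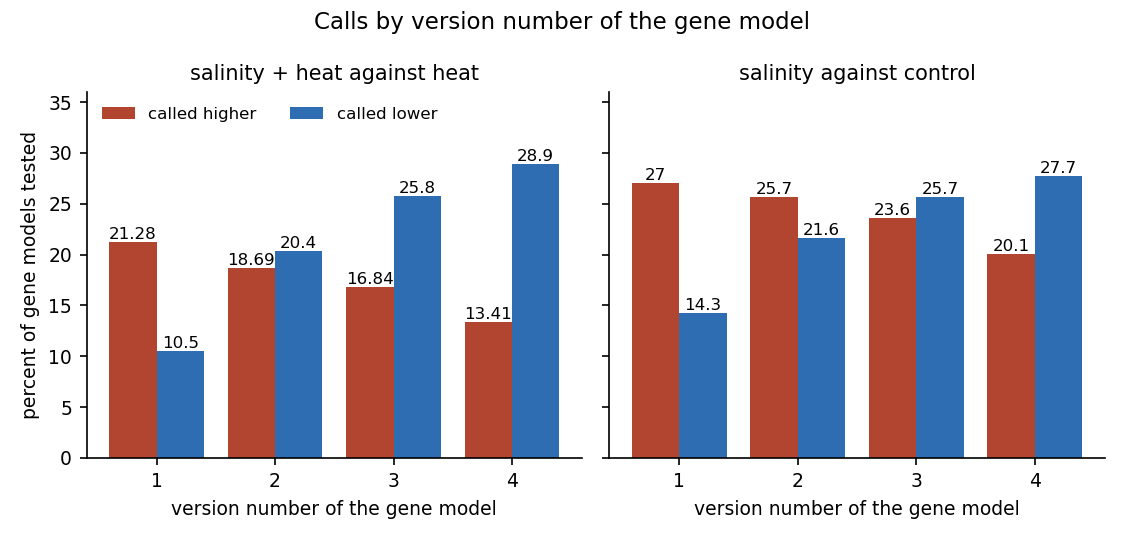
Percent of gene models tested that were called higher (red) or lower (blue), by the version number of the gene model (horizontal axis), for the combination against heat (left) and salinity against control (right). In both panels the share called higher falls from version 1 to version 4, from 21.3% to 13.4% and from 27.0% to 20.1%, and the share called lower rises, from 10.5% to 28.9% and from 14.3% to 27.7%.

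Calls were found on all 12 chromosomes. Increases made up 13.98% of the gene models tested on chromosome 2 and 20.6% on chromosome 11, the lowest and highest of the 12 chromosomes, and decreases between 20.1% on chromosomes 10 and 12 and 26.5% on chromosome 1. Identifiers with chromosome number 0, which marks sequence not placed on a chromosome, numbered 44, of which 11 rose and 0 fell. Of all gene models tested, 17.0% rose and 23.4% fell. In salinity against control 9.09% of the 44 rose and 6.82% fell, compared with 23.6% and 23.8% of all. These 44 had 11 increases and 0 decreases with DESeq2 size factors and with total counts too, at a median level of 0.507 CPM. The share that rose, 25.0%, was 13.6% without combination replicate 2, 11.4% without heat replicate 2 and 4.55% without both, and none fell in these refits. Gene models next to each other by their number changed in the same direction a little more often than the whole. After a gene model that fell, the next tested one also fell in 27.7% of cases, against 23.4% of all, and after one that rose the next rose in 19.6%, against 16.9%. The longest run of decreases held 9 neighbours on chromosome 1, with log2 fold changes of -0.35 to -2.96. Of these 9, 4 also fell in salinity against control and 2 had an interaction call, compared with 55.8% and 17.9% of all decreases. The longest run of increases held 6 neighbours on chromosome 8, with log2 fold changes of 0.39 to 1.44. Of these, 5 also rose in salinity against control, compared with 69.3% of all increases. Both runs were picked as the longest, and whether such lengths exceed those of an unordered genome was not tested.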

How the data were processed

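RNA from tomato leaves was sequenced in 12 libraries, 3 for each of 4 treatments. The authors deposited a table of raw counts, whole numbers with 1 row per gene model and 1 column per library. Trimmomatic 0.33 and Bowtie2 2.3.4 are named per the submitters' processing notes. The counting program, genome build and strandedness are not given in the sources used here, so counts of near-identical, overlapping or antisense models are uncertain. Even numbers made up 66.0% to 69.8% of counts from 1 to 20, so that both mates of a pair may have been counted.

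Gene models were kept by edgeR's filterByExpr (20717 of 34075). One quasi-likelihood model with 4 groups was fitted to all 12 libraries with edgeR 4.0.16 in R 4.3.3 and TMM scaling, and p-values were adjusted over all gene models tested. Its biological coefficient of variation was 25.8%. SEs are approximate, from the size of the log2 change over the root of its F value. CPM values use the TMM-scaled library size, and correlations and principal components use log2 CPM with a prior count of 2. In simulated data for the combination against heat, 200 of 20717 gene models were changed, all with a mean of at least 1 CPM. Changes of log2 size 1 were called in 45.0% and those of size 2 in 94.0%, with 7 calls among unchanged gene models. In the real data 40.3% were called. The adjusted p depends on the share that changed, so the simulated rates need not hold there. The 6 pairs of libraries within a group differed by 50.8 to 167 times the sampling noise (chi-square per degree of freedom).

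Named were the 2 largest changes in each direction among called gene models with at least 5 CPM in the higher group and no overlap of libraries. Larger called changes that did not meet this rule were not named. The groups, lists and rules were chosen with earlier results of these data known. Lists of pathways had been planned but were not used, since no identifier could be paired with a name. Limits at 3 counts cover counting error only. Alternatives were DESeq2 size factors, total counts, 2 other filters, the DESeq2 1.42.0 Wald test, a block for the replicate number, fits of only the groups compared, halved counts, a log2 threshold and leaving out each library; leaving out both libraries of replicate 2 was added after seeing the data.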

Additional observations from a re-analysis of the deposited data

Results flagged for a closer look

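The salinity change differed between heated and unheated plants, by the interaction test itself, for 1852 gene models. In 168 gene models both salinity comparisons were called and had opposite directions. Each of the 4 named gene models had an interaction. On the log2 scale it was 4.76 for Solyc02g071220.3.1, 4.29 for Solyc02g090990.1.1, -4.4 for Solyc01g099990.3.1 and -5.73 for Solyc12g008600.2.1, with adjusted p of 0.00649, 0.00711, 0.014 and 0.00139 in edgeR's quasi-likelihood test. Leaving out any 1 library kept these 4 interactions called. The 4 were named for a large change in the combination against heat, which is part of the interaction. That choice favours large interactions, so these are a description.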

How the results depend on the processing

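The log2 fold changes of the 4 named gene models kept their sign and their call under each alternative but the log2 threshold, which was applied to counts of calls only. Their interactions did so too, except in the fits of only the groups compared, which give no interaction. With 1 library left out, the combination against heat had 4900 to 8931 calls, 1731 to 3832 higher and 3169 to 5099 lower, with 35.3% to 42.9% of calls higher. At a log2 change of 1 or more, 698 to 1193 were higher and 1941 to 3302 lower. The lowest of these 6 values all came without heat replicate 2. Calls shared with salinity against control were 1249 to 2460 higher in both, 1873 to 2811 lower in both and 106 to 201 in opposite directions. Interactions numbered 806 to 2066, and 438 to 1111 of them were also called in the combination against heat. Without both libraries of replicate 2, chosen after seeing the data, there were 2625 calls (912 higher, 1713 lower; 483 and 1189 at a log2 change of 1 or more), 597 higher and 1081 lower in both salinity comparisons, and 457 calls with an interaction. The cause was not tested, and some refits with fewer libraries had more calls, such as 8931 without salinity replicate 1. Requiring a log2 change of at least 1 left 4019 calls (1084 higher, 2935 lower, 27.0% higher) and 5046 for salinity against control, by construction. Total counts gave 1103 interactions, 581 of them with a call in the combination against heat. The DESeq2 Wald test gave 3409 and 1949, and 283 opposite calls. The cause was not tested.

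A replicate block in the model gave 7707 calls in the combination against heat, 9442 in salinity against control and 1297 for the interaction. Deviations of same-numbered heat and combination libraries from their group means correlated at -0.48 to -0.0712 over 3 pairs. So few pairs cannot show whether same-numbered libraries shared more than a number, and the labels used here do not say. DESeq2 size factors shared 7967 of the 8355 calls in the same direction and total counts 6338, with 0 in the opposite direction. Depth limits the values of gene models near 3 counts, as in Solyc01g099990.3.1 in the combination.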

Other observations

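A few gene models were counted in a single one of the 2 heated groups. Of all 34075, 69 had counts in all 3 heat libraries and none in the combination, with a mean of at most 24.0 counts in heat. Another 51 had counts in all 3 combination libraries and none in heat, with a mean of at most 46.7 counts. The spread between libraries, as the median SD of log2(CPM + 0.1) over gene models tested, was 0.222 in heat and 0.266 in the combination. The median absolute difference between combination replicates 1 and 3 was 0.21, compared with 0.378 between 1 and 2 and 0.34 between 2 and 3.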
